A study of Mus musculus with 2 samples.

Results

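The genes described are 39 mouse genes of protein folding, quality control and entry into the secretory pathway at the endoplasmic reticulum (ER), read in J558 plasmacytoma cells, in the other cells of the same tumours, and with and without TAK-931. They were taken by symbol from the 32285 features counted, and all 39 were found. They comprise 2 regulators of the unfolded protein response (UPR), 10 chaperones and co-chaperones, 9 disulphide or prolyl isomerases and partners, 9 genes of ER-associated degradation, and 9 genes of translocation and signal peptide cleavage. J558 cells were the kept cells with at least 3 unique molecular identifiers (UMIs, tags that each count 1 transcript) of Trap1a, a gene of this tumour line.

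Secreted proteins enter the ER through the Sec61 channel, lose their signal peptide, fold with the help of chaperones and disulphide isomerases, and are drawn back into the cytosol for destruction when folding fails. The UPR matches this capacity to the load: the sensor IRE1 splices Xbp1 mRNA, the membrane protein ATF6 is cut to release a transcription factor, and PERK slows translation and raises ATF4. Plasma cells, from which plasmacytomas such as J558 arise, depend on XBP1 and on a large ER because they secrete immunoglobulin at a high rate.

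J558 cells had been grown under the skin of female BALB/c mice. The vehicle group received 0.5% methylcellulose by mouth, the TAK-931 group 60 mg/kg of TAK-931, an inhibitor of the replication kinase CDC7, both once daily for 6 days. Each group was 1 library from 1 dissociated tumour of 1 mouse at day 6, which the study picked as typical of its group, so no value carries a spread between animals and no difference was tested. All intervals are exact 95% intervals and cover counting error alone. Levels are given in CPM, the counts of a gene scaled to a fixed total after summing over the cells of a class.

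Cells were required to show more than 2000 genes and less than 15% of UMIs from mitochondria, which left 3441 vehicle and 3488 TAK-931 cells. Before filtering, 8 barcode sequences occurred in both libraries, and 1 of them was kept in both. Of the kept cells, 3022 vehicle cells (87.8%) and 124 TAK-931 cells (3.56%) were J558 cells, with medians of 42482 and 73592 UMIs. Immunoglobulin genes made up 10.9% and 11.2% of their UMIs. The labels call the line a B lymphocyte. The plasma cell gene Jchain was at 2843 and 7062 CPM in the J558 cells. Sdc1 was at 132 and 134 CPM there, but higher in fibroblast-like cells (390 and 179 CPM). Markers of another lineage (at least 3 UMIs of each of 2 or more genes of 1 class) were carried by 230 vehicle J558 cells (7.61%) and by 68 TAK-931 J558 cells (54.8%), and doublets were not removed. Monocyte/macrophage-like cells numbered 211 with vehicle and 1987 with TAK-931, with medians of 10361 and 14439 UMIs.

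Some members share a promoter element. The ER stress response element (ERSE), bound by ATF6 and XBP1 with the CCAAT-box factor NF-Y, was searched as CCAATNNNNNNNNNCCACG on both strands in RefSeq promoters of build GRCm38, each running from 250 bases before to 50 after a start site. Of the 39 genes 31 matched to a promoter, and 9 of these (29.0%) held an exact ERSE, against 0.137% of 27025 genes with a promoter and 1.19% of 84 genes of the pathway lists used further on. The shorter ERSE-II, ATTGG and CCACG with any 1 base between them, stood in 2 more (6.45%, against 0.0444% of all genes and 1.19% of the pathway lists) and the XBP1 site TGACGTGG in 1 (3.23%, against 0.714% of all genes but 8.33% of the pathway lists). Atf6, Derl1, Hyou1, Manf, Mzb1, Sec11c, Sec61a1 and Spcs3 had no entry. The windows below hold the motifs of members whose levels differed widely between J558 cells or between cell types, with the fixed bases of the motif in capitals, written in the direction of transcription.

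Hspa5, chr2:34772013-34772055, plus strand: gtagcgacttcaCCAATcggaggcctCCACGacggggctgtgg
Hsp90b1, first, chr10:86705626-86705668, minus strand: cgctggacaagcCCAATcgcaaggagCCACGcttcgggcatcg
Hsp90b1, second, chr10:86705521-86705563, minus strand: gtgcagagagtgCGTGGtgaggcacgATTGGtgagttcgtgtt
Calr, chr8:84847063-84847105, minus strand: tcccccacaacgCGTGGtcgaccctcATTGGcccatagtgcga
Pdia6, chr12:17266479-17266521, plus strand: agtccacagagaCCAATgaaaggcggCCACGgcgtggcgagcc
Creld2, chr15:88819508-88819550, plus strand: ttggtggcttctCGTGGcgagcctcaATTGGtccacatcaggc
Derl3, chr10:75893230-75893272, plus strand: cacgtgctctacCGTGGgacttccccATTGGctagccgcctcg
Herpud1 (ERSE-II), chr8:94386365-94386399, plus strand: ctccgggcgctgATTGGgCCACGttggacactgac

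The Hspa5 element began 65 bases before the RefSeq start site, the Herpud1 element 52 bases, and Hsp90b1 carried a pair, 212 and 107 bases before it. Canx, Dnajc3 and Syvn1 held the other ERSE copies, and Txndc5 held the XBP1 site. The other ERSE-II was that of Dnajb11, and it began 7 bases after the start site. A match is a description of letters and not a measured site. On the annotation (GENCODE M21, build mm10, which shares the coordinates of GRCm38) Hspa5 lies on chr2:34771970-34777547, a span that starts before the RefSeq start and takes in the element, Hsp90b1 on chr10:86690209-86705509 and Xbp1 on chr11:5520659-5525893. Exons of 4 members (Pdia4, Manf, Hsp90b1 and Mzb1) overlap another gene on the same strand, so reads there could be split or dropped.

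The first comparison set J558 cells against the monocyte/macrophage-like cells of the same tumour. In the vehicle library the median member was higher in J558 cells by a log2 ratio of 0.93, against 0.14 over the 12610 genes that reached 50 UMIs when both sums were added. There, 18 of 39 members were at least 2-fold higher in J558 cells (26.9% of all genes were) and 1 was at least 2-fold lower (24.8% of all genes). In the TAK-931 library the median was 1.55 (0.11 over all genes), with 27 members at least 2-fold higher (27.9% of all genes) and 0 lower (28.2% of all genes). The excess was uneven: isomerases and partners had median log2 ratios of 1.91 (vehicle) and 2.83 (TAK-931), and degradation genes 1.33 and 1.79, but chaperones only 0.09 and 0.74.

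Among the regulators, Xbp1 stood at 367 CPM in J558 and 70.7 CPM in macrophage-like cells of the vehicle library, and at 419 and 71.7 CPM in the TAK-931 library. Its log2 ratio was 2.38 (2.17 to 2.59) in the vehicle and 2.55 (2.47 to 2.62) in the TAK-931 library. UMIs counted at the 3′ end do not tell spliced from unspliced Xbp1. Atf6 reached 96.3 against 53.7 CPM in the vehicle and 101 against 45.1 CPM in the TAK-931 library.

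Hspa5 (BiP), the Hsp70 chaperone of the ER lumen, stood at 1262 CPM in J558 and 1373 CPM in macrophage-like cells of the vehicle library, and at 1016 and 920 CPM in the TAK-931 library. Its log2 ratios of -0.12 and 0.14 each changed sign when scaled by the median ratio of all genes (highest 0.15 in the vehicle, lowest -0.19 in the TAK-931 library). Hsp90b1 (GRP94), which folds Toll-like receptors and integrins, was higher in J558 cells, at 2232 against 961 CPM in the vehicle and 2280 against 483 CPM in the TAK-931 library (log2 ratios 1.22, 1.16 to 1.27, and 2.24, 2.21 to 2.27). Dnajc3, a co-chaperone of BiP also called p58IPK, was the 1 member at least 2-fold lower in vehicle J558 cells, at 59.7 against 126 CPM in the vehicle and 65.7 against 84.4 CPM in the TAK-931 library, and its vehicle ratio of -1.08 shrank to as little as -0.81 under other totals or scaling. The lectin chaperone Calr was at 720 CPM in J558 against 1098 CPM in macrophage-like cells of the vehicle library, but at 840 against 629 CPM in the TAK-931 library, so its direction differed between libraries. Hyou1, a large BiP relative that exchanges its nucleotide, was at 49.3 and 40.1 CPM in the vehicle and at 57.8 and 27.6 CPM in the TAK-931 library. Dnajb9, a BiP partner that restrains IRE1, was at 109.5 and 110 CPM in the TAK-931 library, with an interval of the log2 ratio that held 0 (-0.11 to 0.10).

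The highest ratios of J558 to macrophage-like cells were those of the isomerases and partners Mzb1, Fkbp11 and Txndc5 and of the degradation gene Derl3. Mzb1, a plasma cell partner of GRP94 in immunoglobulin assembly, stood at 915 CPM in vehicle J558 cells against 13.6 CPM in macrophage-like cells, and at 1368 against 4.43 CPM in the TAK-931 library. Fkbp11, a prolyl isomerase of secretory cells, stood at 317 against 3.02 CPM and at 225 against 2.77 CPM. Free RNA, estimated from immunoglobulin genes at 1.38% (vehicle) and 3.85% (TAK-931) of the UMIs of macrophage-like cells, would give 11.9 and 6.59 CPM of Mzb1 and 4.17 and 1.32 CPM of Fkbp11. The macrophage-like values of Mzb1 in both libraries and of Fkbp11 in the vehicle library are thus near background. For Fkbp11 in the TAK-931 library free RNA would supply 47.5% of the level. The size and order of the Mzb1 and Fkbp11 ratios are therefore uncertain. Txndc5, a disulphide isomerase, was at 216 against 33.6 CPM in the vehicle and 441 against 24.6 CPM in the TAK-931 library. Pdia4 was at 452 against 81.6 CPM and at 476 against 43.0 CPM (log2 ratios 2.47 and 3.47). By contrast Pdia3, which works with calnexin and calreticulin on glycoproteins, was at 362 against 542 CPM in the vehicle, and P4hb, the founding disulphide isomerase and a subunit of collagen prolyl hydroxylase, at 212 against 299 CPM. In the TAK-931 library both were slightly higher in J558 cells, with log2 ratios of 0.41 and 0.17, the latter -0.16 when scaled by the median ratio.

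Of the degradation genes, Derl3, a derlin that draws misfolded proteins through the membrane, stood at 92.9 CPM in J558 and 2.65 CPM in macrophage-like cells of the vehicle library, and at 94.5 and 1.08 CPM in the TAK-931 library. Free RNA would supply 45.8% and 44.7% of those macrophage-like levels. Its J558 level was the same within counting error in both libraries. Herpud1, an adaptor of the ubiquitin ligase Hrd1 (Syvn1), was at 378 against 80.9 CPM and at 263 against 64.3 CPM. Edem1, a mannosidase-like protein that marks glycoproteins for removal, was at 219.9 against 87.3 CPM and at 273 against 80.2 CPM. All 9 degradation genes had log2 ratios above 0 in both libraries, where the medians over all genes (0.14 and 0.11) were above 0 too. Their ratios ran from 0.30 to 5.13 in the vehicle and from 0.26 to 6.45 in the TAK-931 library. The lowest of these, Derl2 in the TAK-931 library, was -0.07 when scaled by the median ratio.

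All 9 translocation and cleavage genes were also above 0 in both libraries, again beside medians over all genes of 0.14 and 0.11. Sec61b, the small channel subunit, stood at 962 against 506 CPM in the vehicle and at 1198 against 371 CPM in the TAK-931 library. Sec11c, a catalytic subunit of signal peptidase, had the highest ratio of the group, at 914 against 164 CPM and at 1021 against 81.2 CPM (log2 ratios 2.48 and 3.65).

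**Figure D1:**
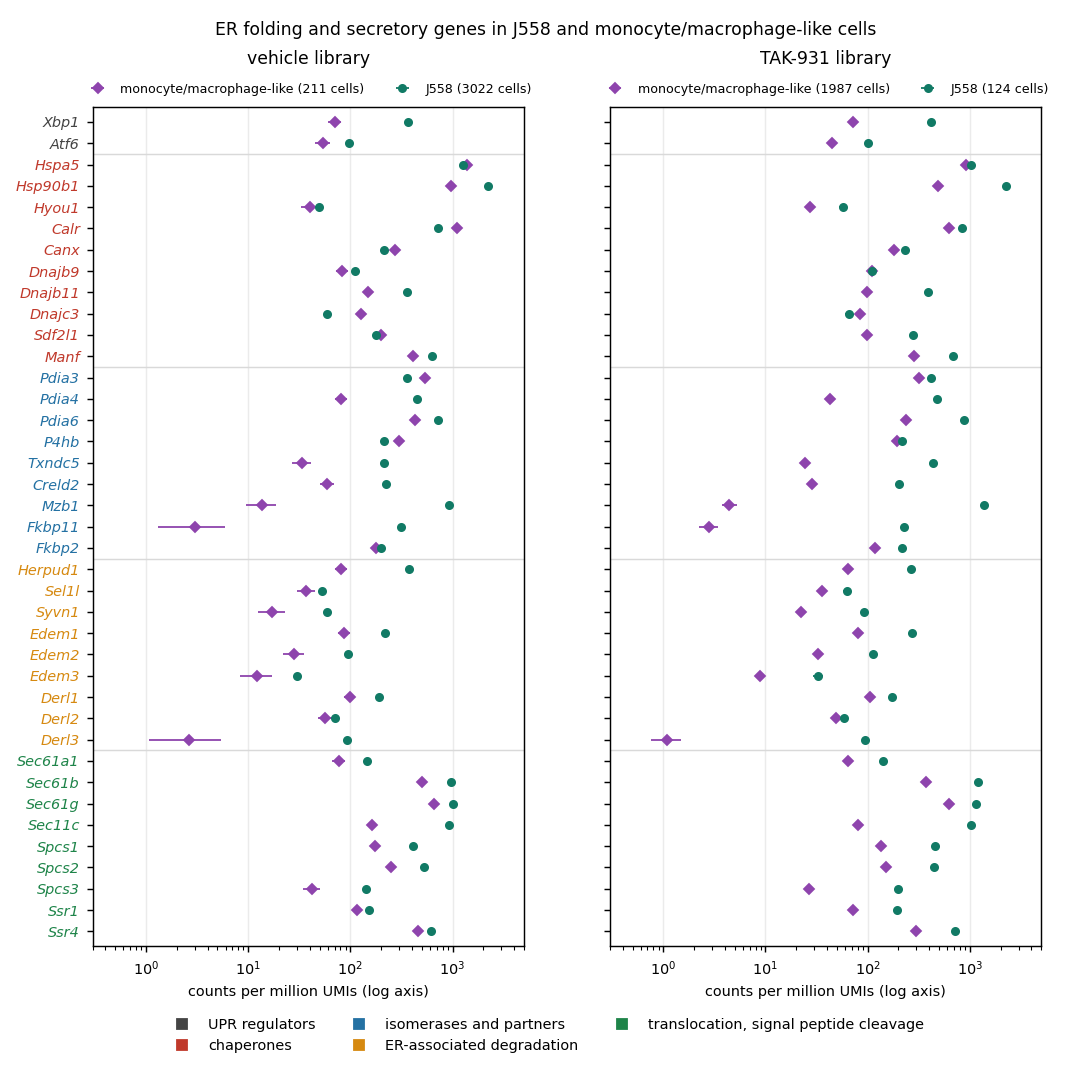
Level of each member in CPM (log axis) in J558 cells (circles) and monocyte/macrophage-like cells (diamonds) of the vehicle (left) and TAK-931 (right) library, with exact 95% Poisson intervals; gene names are coloured by role. Mzb1, Fkbp11 and Derl3 stand apart by the widest gaps, while Hspa5 nearly coincides.

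Against all classes with at least 10 cells, J558 cells held the highest level of 28 of 39 members among 7 classes in the vehicle library (23.0% of all genes) and of 23 members among 8 classes in the TAK-931 library (19.9% of all genes). For 7 of the 28 (such as Atf6, at 96.3 against 93.7 CPM in dendritic-like cells) and 5 of the 23 the J558 level lay within the counting interval of the next class. They led the next class at least 2-fold for 11 members in the vehicle (8.80% of all genes) and for 10 in the TAK-931 library (5.42% of all genes). The summed level of the 39 genes was 15960 CPM in vehicle and 17600 CPM in TAK-931 J558 cells. Among other classes it ran from 6890 CPM (dendritic-like) to 9350 CPM (monocyte/macrophage-like) in the vehicle library.

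In the TAK-931 library 64 plasmacytoid dendritic-like cells came closest, at 13845 CPM. Plasmacytoid dendritic cells are interferon-secreting cells with an ER resembling that of plasma cells. They held the highest level of 14 of the 16 members that J558 cells did not lead there, and fibroblast-like cells held the other 2 (Dnajb9 and P4hb). The share of all genes led by plasmacytoid dendritic-like cells was not computed, so these counts describe the members alone. Xbp1 was at 798 CPM in plasmacytoid dendritic-like and 419 CPM in J558 cells, Herpud1 at 349.5 and 263 CPM, Hyou1 at 125 and 57.8 CPM, and Dnajc3 at 351 and 65.7 CPM. Mzb1, at 180 against 1368 CPM, and Pdia4, at 107 against 476 CPM, remained higher in J558 cells. The median log2 ratio of J558 to plasmacytoid dendritic-like cells was 0.19, against -0.05 over all genes. The vehicle library had 6 such cells, too few to compare.

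Other genes of the pathway were read from lists, beside the 26.9% of all genes that were higher and 24.8% that were lower. In the vehicle library, 5 of 12 oligosaccharyltransferase genes, which attach sugar chains to new proteins, were at least 2-fold higher in J558 than in macrophage-like cells and 1 was lower. Dad1 was at the top (log2 ratio 1.64) and Tusc3, at 0.112 CPM in J558 against 16.3 CPM in macrophage-like cells, at the bottom. Of 15 other translocation genes 8 were higher and 0 lower, with Srp19, a signal recognition particle protein, at the top (log2 ratio 2.11). Of 18 other folding genes 8 were higher and 1 lower, with Ero1l, the oxidase that drives disulphide formation, at the top (2.82) and Fkbp7 at the bottom (-1.14). Vesicle transport gave 7 higher of 24 (near the share over all genes) and 1 lower, with Kdelr3 at the top (4.95), a receptor that returns escaped ER proteins, with Mcfd2 lowest (-1.24). Of 15 other degradation genes 4 were higher, again near that share (Erlec1 at the top, 1.49) and 2 lower (Rnf139 at the bottom, -1.04). The PERK and ATF4 arm was split, with 9 of 18 higher and 5 lower, from Phgdh, the entry enzyme of serine synthesis (5.25), to the stress factor Atf3 (-6.03). The list given this name also holds Ern1, the gene of IRE1, here and in all later counts.

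The genes were next followed from cell to cell among vehicle J558 cells. Each cell was thinned to 10000 UMIs, which kept 2989 cells and left out 33 shallower ones. With pure counting noise the variance of a gene equals its mean. The ratio exceeded 1.5 for 19 of the 37 members with a mean of at least 0.5 UMIs (16.6% of all 2378 such genes), with a median of 1.63 against 1.15 over all genes. At equal relative spread this ratio is higher in more abundant genes. The members were the more abundant (median gene at 2.24 against 1.05 UMIs), and the part of this was not tested. Thinned to 20000 UMIs, which kept 2863 cells, 26 of 39 members passed 1.5 (18.7% of all genes), with a median of 1.92.

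Hsp90b1 had the highest ratio (10.7) and also the highest mean (22.1 UMIs). Its UMIs were 8 at the 10th percentile, 19 at the median, 40 at the 90th percentile and 210 in the highest cell. Hspa5 followed (7.79), with 4, 10 and 23 UMIs at the same points and 138 in the highest cell. Herpud1 had a ratio of 5.84 at a mean of 3.75 UMIs. Its median was 3 and its highest cell 141 UMIs, so a few cells reached levels far above the rest. Mzb1 (4.81), Calr (3.24) and Manf (2.80), a secreted factor that leaves the ER under stress, came next. At the other end Derl2, Spcs3 and Sec61a1 lay between 1.08 and 1.13, near counting noise, at low means of 0.69, 1.41 and 1.41 UMIs. Edem3 and Sel1l fell short of that mean. The 39 genes together took 97 UMIs of 10000 at the 10th percentile, 154 at the median and 224 at the 90th, and 648 in the highest cell.

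**Figure D2:**
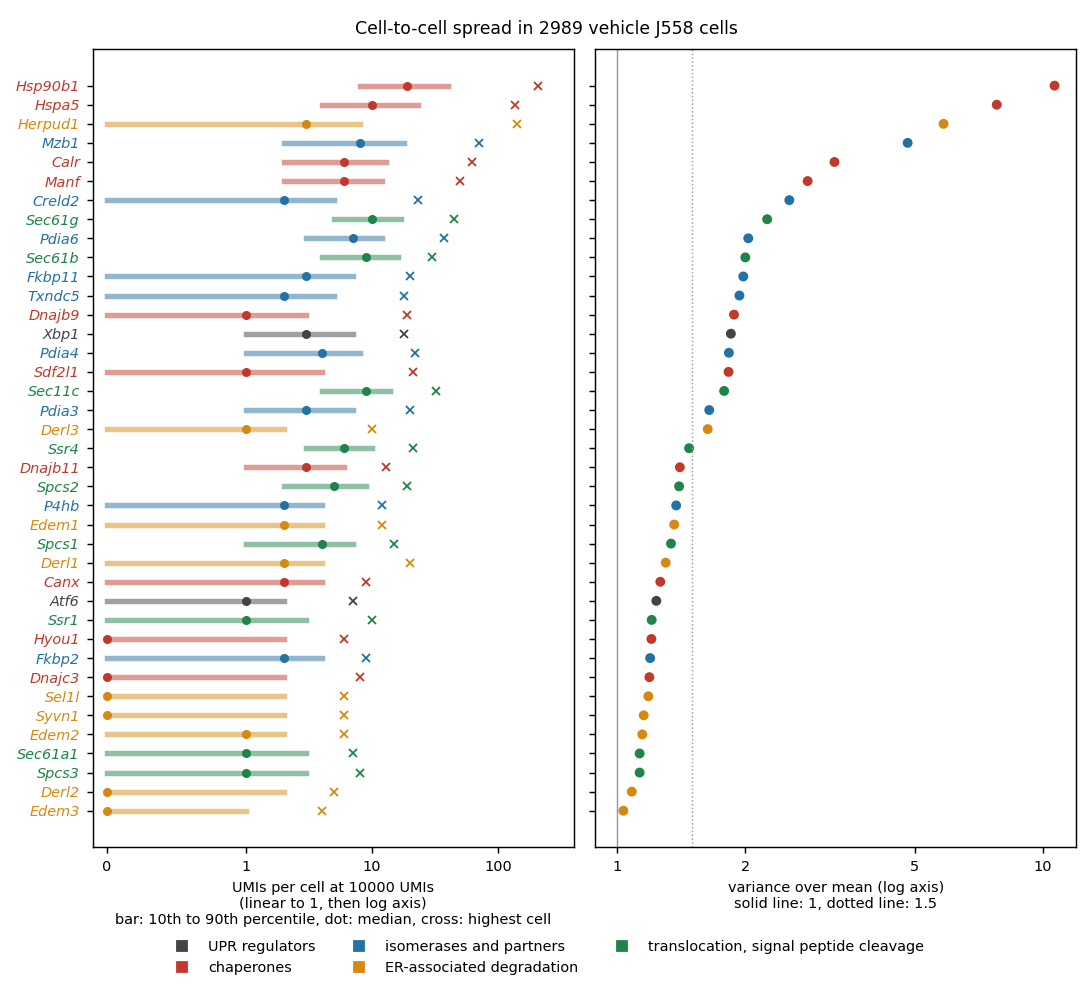
Spread of each member over 2989 vehicle J558 cells thinned to 10000 UMIs. Left, UMIs per cell (linear to 1, then log axis) with the 10th to 90th percentile (bar), median (dot) and highest cell (cross); right, variance over mean (log axis). Hsp90b1, Hspa5, Herpud1 and Mzb1 lie farthest from the line of counting noise at 1.

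Of 666 pairs of members, 44 had a Spearman rho over 0.3 across the 2989 cells, with a median of 0.087. Over all pairs of the 2378 genes that reached a mean of 0.5 UMIs, 0.0656% passed 0.3 and the median was 0.0055, but the members were the more abundant, with a median gene at 2.24 against 1.05 UMIs per cell. The strongest pairs were Hsp90b1 with Calr (0.56), with Hspa5 (0.55) and with Pdia6 (0.51). Herpud1, among the most variable, reached at most 0.20 (with Hspa5). The channel subunits Sec61b and Sec61g correlated at 0.43. Summed by role, chaperones and isomerases correlated at 0.71 and isomerases and translocation genes at 0.54. These cells share 1 library and a fixed depth, so the values describe this tumour alone.

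The cells were then ranked by the thinned UMIs of a single member, Hspa5, a ranking chosen after the values were seen. Hspa5 itself is then no result. They were split into 4 bins of near-equal size. The lowest bin had a median of 5 and the highest of 21 Hspa5 UMIs, at median depths of 43419 and 41072 UMIs and immunoglobulin shares of 10.9% in both. Cell cycle genes differed between them, with the G2/M list at 6107 CPM in the lowest and 4153 CPM in the highest bin and the S phase list at 2669 and 2117 CPM, and their part in the result was not tested. All of the other 38 members were higher in the highest bin, with a median log2 ratio of 0.61 against -0.03 over all genes. At least 1.5-fold higher were 20 of the 38 (2.32% of all genes) and lower were 0 (4.06% of all genes). For 36 of the 38 the level was higher at every step from the lowest to the highest bin (10.6% of all genes, with 14.7% lower at every step). With 2 bins in place of 4 the median was 0.37 and 7 of the 38 passed 1.5-fold (1.15% of all genes), so the counts by role and motif that follow hold for 4 bins.

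The size followed the role. All 9 other chaperones passed 1.5-fold, as did 7 of 9 isomerases and partners and 4 of 9 degradation genes, but 0 of 2 regulators and 0 of 9 translocation genes. Hsp90b1 went from 1476 to 3414 CPM (log2 ratio 1.21, 1.19 to 1.23). Creld2, a UPR-induced isomerase-like protein, went from 154 to 346 CPM, Manf from 413 to 927 CPM and Hyou1 from 32.1 to 71.9 CPM. Derl3 went from 63.6 to 131 CPM, Mzb1 from 714 to 1137 CPM, Herpud1 from 295 to 496 CPM and Pdia4 from 355 to 579 CPM. Xbp1, the regulator, moved less, from 337 to 403 CPM (log2 ratio 0.26), as did Edem1 (0.39) and Sec61b (0.48). The smallest differences were those of Derl2 (0.14), Ssr4 (0.14), Spcs1 (0.19) and Sec11c (0.22).

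The ranking can be set beside the promoter windows shown above. All 10 members with an ERSE or ERSE-II other than Hspa5 passed 1.5-fold, with a median log2 ratio of 0.75 (0.61 to 1.21). Of the 20 matched members without either, 7 passed, with a median of 0.46 (0.14 to 0.97). Role and motif overlapped: 5 of the 10 with a motif were chaperones, and both matched chaperones without one (Dnajb9 and Sdf2l1) also passed. Outside the chaperones 5 of 5 with a motif and 5 of 18 without passed. The ratio of variance to mean had medians of 2.03 in 11 members with and 1.44 in 20 members without a motif. The set was assembled from known ER genes, several of which are known for this element, so these counts describe the set.

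The other lists followed to a lesser degree, with median log2 ratios from 0.23 (degradation) to 0.39 (vesicle transport). The PERK and ATF4 arm did not. Of its 18 genes 1 was at least 1.5-fold higher in the highest Hspa5 bin, against 2.32% of all genes (Chac1, a glutathione-degrading enzyme, from 37.1 to 59.4 CPM) and 0 were lower, with a median log2 ratio of -0.03. Trib3 and Asns, targets of ATF4, were at 13.8 and 303 CPM in the lowest and 9.81 and 255 CPM in the highest bin.

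Cell cycle state was the next axis, with vehicle J558 cells in bins by thinned UMIs of G2/M genes. The median member was lower in the highest than in the lowest bin (log2 ratio -0.13), against 0.16 over all genes. Members at least 1.5-fold higher numbered 0 (15.8% of all genes) and members at least 1.5-fold lower 2 (6.30% of all genes). The 2 were Dnajb9, at 74.8 against 156 CPM, and Mzb1, at 640 against 1119 CPM, of which 1 remained past 1.5-fold with 2 bins in place of 4. Derl3 (-0.51) and Dnajc3 (-0.38) followed. Txndc5 (0.33), Derl2 (0.25), Ssr1 (0.24) and Spcs3 (0.13) were the highest.

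Over the G2/M bins the summed level of the 39 genes was 16032, 17763, 16733 and 13974 CPM from the lowest to the highest. The median depth was 35287 UMIs in the lowest and 54954 UMIs in the highest bin. Among cells of 20000 to 60000 UMIs the median was -0.15, with 0 members higher (15.1% of all genes) and 2 lower (5.14%). Derl2 was the 1 member higher at every step (27.6% of all genes), and 7 members were lower at every step (8.34% of all genes; Dnajb9, Edem2, Fkbp2, Mzb1, Spcs1, Ssr4 and Syvn1). Hspa5 had a log2 ratio of -0.34, Hsp90b1 -0.15, Hyou1 -0.12 and Pdia4 -0.00. Xbp1 (0.04), Herpud1 (-0.10), Edem1 (-0.15) and Sec61b (-0.30) were also short of 1.5-fold.

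By S phase genes the median member had a log2 ratio of -0.05 between the highest and lowest bin (0.12 over all genes). This axis was not separate from the last: the G2/M list was at 1975 CPM in the lowest and 6399 CPM in the highest S phase bin, the scores correlated at a rho of 0.65, and the median depths were 34123 and 48549 UMIs. Members past 1.5-fold were 0 higher (14.4% of all genes) and 1 lower (5.98% of all genes). The lower one was again Dnajb9, at 82.3 against 158 CPM, followed by Edem2 (-0.25), Spcs1 (-0.23) and Fkbp2 (-0.21). Sdf2l1, a partner of ER DnaJ proteins, was highest at 209 against 139 CPM (0.58), then Txndc5 (0.46), Creld2 (0.45) and Ssr1 (0.32). Xbp1 (0.27), Hsp90b1 (0.22), Pdia4 (0.18) and Derl3 (0.17) were above 0, Herpud1 (0.01) was level, and Hspa5 (-0.17), Mzb1 (-0.19), Hyou1 (-0.15), Edem1 (-0.06) and Sec61b (-0.16) were below.

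The last axis was the immunoglobulin content of the cell, the cargo of this pathway, with levels given as CPM of the UMIs outside immunoglobulin genes. The immunoglobulin share was 7.07% of UMIs in the lowest and 14.8% in the highest bin. The median member had a log2 ratio of 0.10, against -0.15 over all genes, and 30 of 39 were above 0. With immunoglobulin genes in the totals the median was -0.026, so its sign depended on that choice. Mzb1 was the 1 member at least 1.5-fold higher (1.51% of all genes), at 1237 against 798 CPM, and 0 were lower (7.92% of all genes). Mzb1 fell short of 1.5-fold with immunoglobulin in the totals and with 2 bins. Derl3 (0.55), Ssr4 (0.44), a subunit of the translocon-associated complex, and Edem2 (0.43) came next. Sel1l (-0.32), the partner of Hrd1, Hyou1 (-0.29), Canx (-0.26) and Atf6 (-0.23) were lowest. Hspa5 (0.08), Hsp90b1 (0.01) and Xbp1 (0.05) barely differed, as did Pdia4 (0.08) and Edem1 (0.10), while Herpud1 (0.24) and Sec61b (0.16) were slightly higher. Across single cells no role sum correlated with immunoglobulin above a rho of 0.11.

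**Figure D3:**
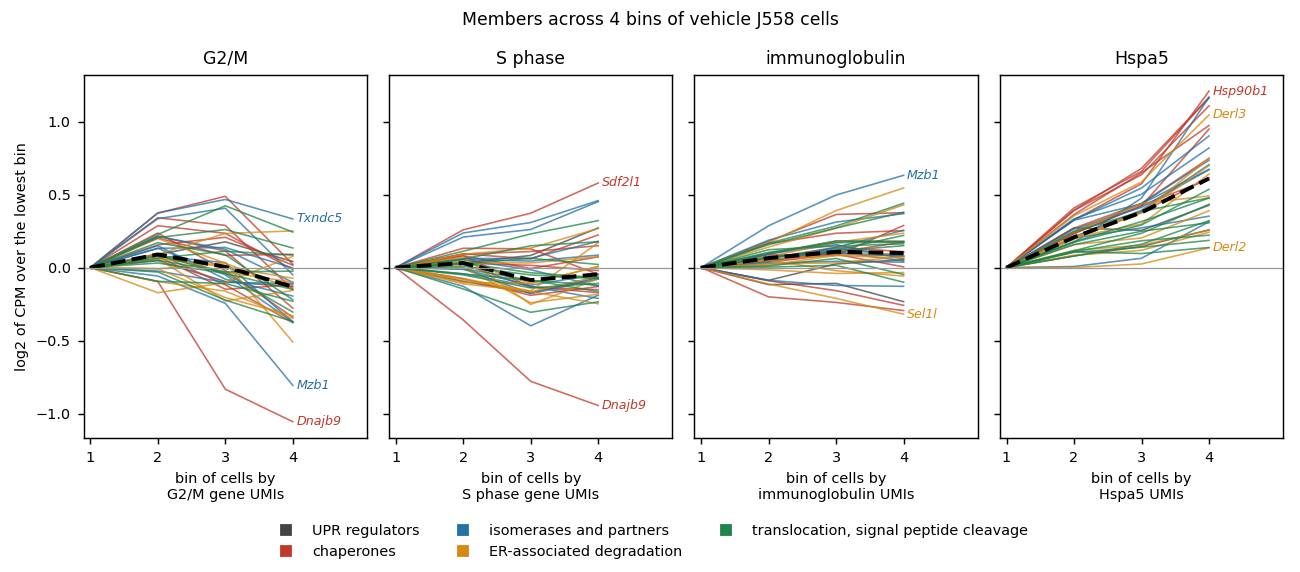
Log2 of each member's CPM over its CPM in the lowest bin (vertical axis) across the 4 bins (horizontal axis) of vehicle J558 cells ranked by G2/M, S phase, immunoglobulin or Hspa5 UMIs; each line is 1 gene and the dashed black line is the member median. Lines fan upward for Hspa5, to a median of 0.61, while the median ends at -0.13, -0.05 and 0.10 on the other axes.

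The TAK-931 comparison in J558 cells rests on 124 treated cells. Of these 28 lay in clusters of other cell types, against 14 of the 3022 vehicle cells, and without them the median was 0.19 with 4 members at least 1.5-fold higher (12.4% of all genes). With a finer clustering (resolution 1.0) the largest J558-like cluster held 1152 vehicle and 11 TAK-931 cells, and another held 31 and 48, so the libraries filled the J558-like clusters in different shares. The median member had a log2 ratio of TAK-931 to vehicle of 0.14 (0.03 over all genes), with 3 of 39 at least 1.5-fold higher (17.9% of all genes) and 0 lower (12.1% of all genes). Txndc5 was at 441 CPM with TAK-931 and 216 CPM with vehicle (log2 ratio 1.03, 0.98 to 1.08). Syvn1, the Hrd1 ubiquitin ligase, was at 92.5 against 58.9 CPM (0.65, 0.55 to 0.75), and Sdf2l1 at 275 against 177 CPM (0.64, 0.58 to 0.70).

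Mzb1, at 1368 against 915 CPM (0.58), lay just short of 1.5-fold and passed it under 3 alternatives. The lowest were Herpud1, at 263 against 378 CPM (-0.52), Fkbp11, at 225 against 317 CPM (-0.49), Hspa5, at 1016 against 1262 CPM (-0.31), and Derl2, at 58.5 against 70.5 CPM (-0.27). Xbp1 (0.19), Hsp90b1 (0.03), Derl3 (0.02), Edem1 (0.31), Sec61b (0.32), Pdia4 (0.07) and Hyou1 (0.23) were in between. The treated J558 cells were deeper and carried more transcripts of other lineages (macrophage list 485 against 38.97 CPM, T cell list 398 against 37.5 CPM), and the part of these in the ratios was not tested. Among cells of 20000 to 60000 UMIs, 2426 vehicle and 27 TAK-931 cells, the median was -0.26 (-0.01 over all genes), with 1 member at least 1.5-fold higher (23.0% of all genes) and 8 lower (19.4%). The sign of the J558 median thus differed with depth. Herpud1 passed 1.5-fold, to as low as -1.11, under 4 alternatives, while Hsp90b1 (-0.64 to 0.10), Pdia4 (-0.77 to 0.16) and Derl3 (-0.42 to 0.07) had no stable sign over theirs.

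The PERK and ATF4 arm had 2 of 18 genes at least 1.5-fold higher and 7 lower in the same cells (17.9% and 12.1% of all genes), with a median log2 ratio of -0.37. Trib3, a pseudokinase induced by ATF4, was lowest at 1.22 against 12.8 CPM (11 and 1722 UMIs), and Asns, asparagine synthetase, was at 95.03 against 282 CPM. Atf3 was highest at 14.3 against 5.00 CPM. In the vehicle library Atf3 was far lower in J558 than in macrophage-like cells, and the treated J558 cells carried more macrophage transcripts. The part of those transcripts in the Atf3 ratio was not tested. The other lists stayed close to 0, with medians from -0.17 (translocation) to 0.20 (vesicle transport).

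In monocyte/macrophage-like cells the median member had a log2 ratio of -0.56 (-0.03 over all genes). Of 38 members with enough UMIs, 0 were at least 1.5-fold higher (16.3% of all genes) and 17 were lower (18.0% of all genes). Scaled by the median ratio of all genes, 10 were lower (13.9% of all genes). In these cells the J558 marker list was at 1294 CPM with vehicle (8 of 9 genes detected, Iglc2 at 0) and 463 CPM with TAK-931 (9 of 9), the fibroblast list at 7.18 CPM (3 of 6, Dcn, Pdgfra and Lum at 0) and 40.3 CPM (6 of 6), and the G2/M genes at 2295 and 1444 CPM. With free RNA subtracted the median was -0.56 with 17 lower (18.4% of all genes), and the part of the fibroblast and G2/M genes in the ratios was not tested. The 17 were 5 of 10 chaperones, 7 of 9 isomerases and partners, 5 of 9 translocation genes, 0 of 8 degradation genes and 0 of 2 regulators. Hsp90b1 was at 483 CPM with TAK-931 and 961 CPM with vehicle, Calr at 629 and 1098 CPM, and Sdf2l1 at 98.0 and 199 CPM. Creld2 (-1.05), Sec11c (-1.02) and Pdia4 (-0.93) were also lower. Mzb1 was lowest (-1.62), at levels that free RNA could supply.

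Hspa5, at 920 against 1373 CPM (-0.58), fell just short of 1.5-fold, as did Hyou1 (-0.54). Xbp1, at 71.7 against 70.7 CPM, was level. Dnajb9 (0.40), Syvn1 (0.39), Edem2 (0.24) and Derl1 (0.08) were highest, and Herpud1 (-0.33), Edem1 (-0.12) and Sec61b (-0.45) were in between. The macrophage-like class joined 3 clusters. Within cluster 2 (90 vehicle and 954 TAK-931 cells) the median was -0.45 (0.10 over all genes), with 11 members lower (11.6% of all genes) and 2 higher (22.5%). Within cluster 3 (119 and 868 cells) it was -0.65 (-0.14 over all genes), with 22 lower (23.2%) and 0 higher (13.9%). Cluster 10 had 2 vehicle and 165 TAK-931 cells and gave no value.

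In the same macrophage-like cells 5 of 12 oligosaccharyltransferase genes were at least 1.5-fold lower and 0 higher (18.0% and 16.3% of all genes), with Rpn1 lowest (-0.92). Of 16 other folding genes with enough UMIs 5 were lower, led by Uggt1 (-1.04), the sensor that returns misfolded glycoproteins to calnexin. The PERK and ATF4 arm had 5 higher and 4 lower of 16, from Ddit3 (1.03), the stress factor CHOP, to Phgdh (-2.57).

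Endothelial-like cells, 80 with vehicle and 243 with TAK-931, were added after the values were seen. With a finer clustering (resolution 1.0) the class split by library, into one cluster (81 cells from vehicle, 1 from TAK-931) and another (4 and 243), cells with Trap1a included, so treatment and subtype cannot be told apart here. Their median was -0.71 (-0.16 over all genes), with 0 of 37 members at least 1.5-fold higher (14.8% of all genes) and 23 lower (24.4% of all genes). Scaled by the median ratio of all genes, the median was -0.42 (0.13 over all genes) with 8 lower (12.8% of all genes). The monocyte/macrophage marker list was at 333 CPM (9 of 10 genes detected, Fcgr1 at 0) with vehicle and 2491 CPM (10 of 10) with TAK-931 in these cells. The endothelial list was at 7247 and 3977 CPM (7 of 7 detected in both), and mitochondrial UMIs at 4.68% and 6.85%. The J558 list was at 1134 and 350 CPM (8 and 7 of 9 detected) and the fibroblast list at 225 and 58.8 CPM (3 and 5 of 6). The dendritic list was at 320 and 144 CPM (3 and 7 of 9) and the T cell list at 4.54 and 89.5 CPM (3 and 9 of 9). With free RNA subtracted the median was -0.70 with 23 lower (24.2% of all genes). The part of the marker lists and of the mitochondrial share in the ratios was not tested. Xbp1 was at 84.7 against 257 CPM (log2 ratio -1.60, -1.80 to -1.40), Hspa5 at 819 against 1405 CPM, and Hsp90b1 at 417 against 732 CPM. Fkbp11 (-1.98), Spcs3 (-1.84), a signal peptidase subunit, and Dnajc3 (-1.23) were also among the lowest, and Herpud1 (0.17), Sec61g (0.05), Dnajb9 (0.00) and Sec61b (-0.28) were highest. Hyou1 (-0.93), Pdia4 (-0.77) and Edem1 (-0.44) lay between. Of 17 other folding genes 14 were lower, and of 24 vesicle transport genes 14 (24.4% of all genes), led by Fkbp14 (-2.11) and Kdelr3 (-2.98). Medians in dendritic-like, T-like, NK-like and fibroblast-like cells were -0.01, -0.23, -0.24 and -0.22, from vehicle classes of 35, 14, 10 and 50 cells.

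**Figure D4:**
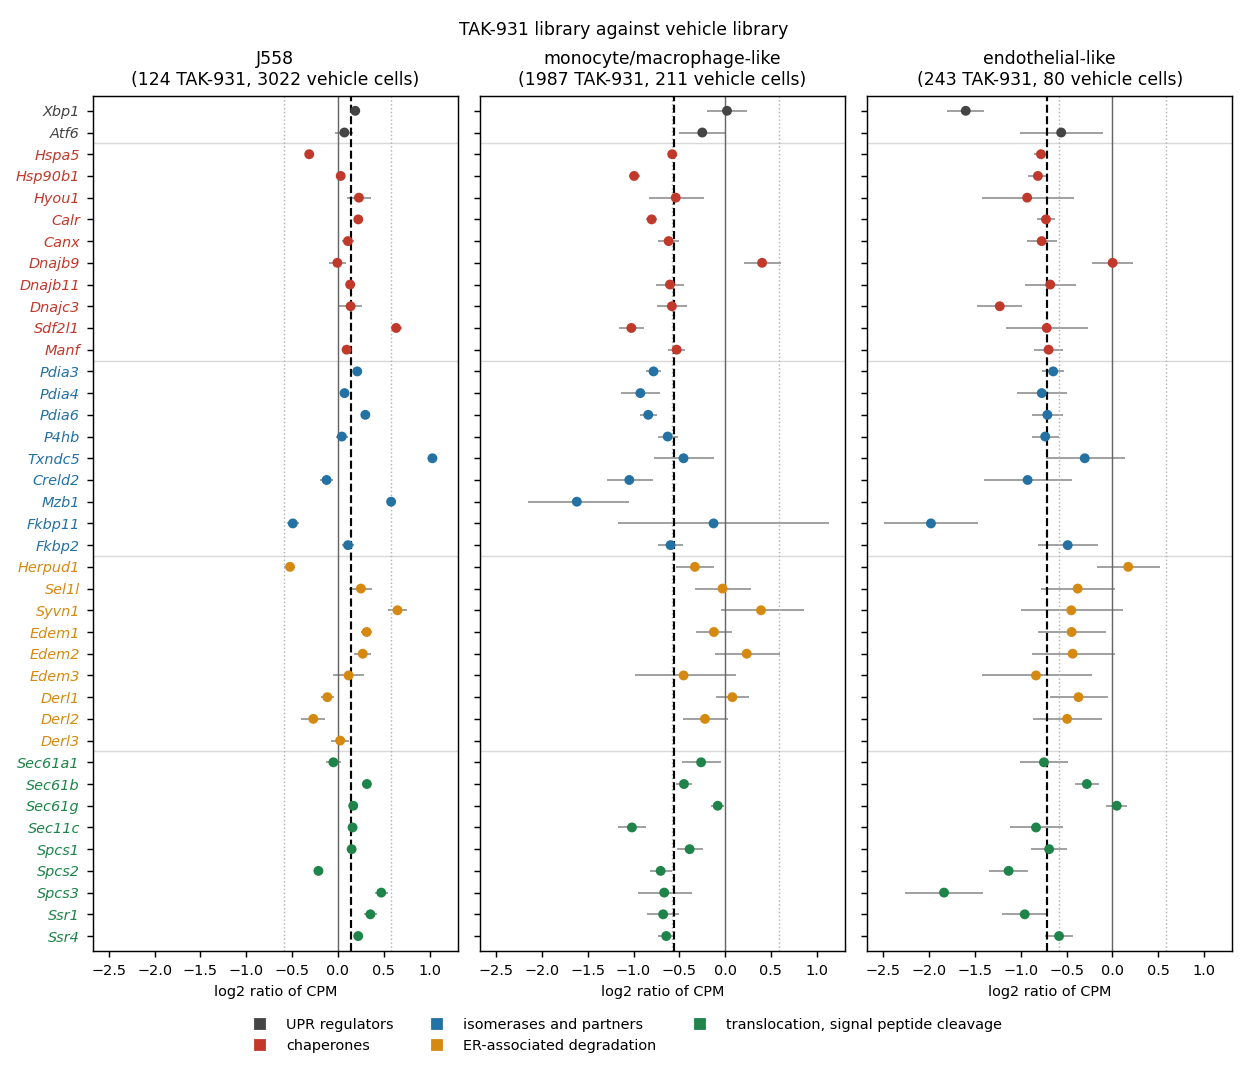
TAK-931 over vehicle CPM as a log2 ratio (horizontal axis) for each member in J558, monocyte/macrophage-like and endothelial-like cells, with exact 95% intervals for counting error; dashed lines are member medians and dotted lines 1.5-fold. J558 values centre on 0.14, macrophage-like on -0.56 and endothelial-like on -0.71.

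Over all kept cells together, as a bulk sample would read them, the median member had a log2 ratio of -0.95 (0.21 over all genes). There, 0 members were at least 1.5-fold higher (41.5% of all genes) and 29 of 39 were lower (28.6% of all genes). Fkbp11 (-3.10), Derl3 (-2.73), Mzb1 (-2.24) and Pdia4 (-2.02) were lowest, and Dnajc3 (0.53), Pdia3 (-0.05), Dnajb9 (-0.09) and Canx (-0.13) were highest. Herpud1 (-1.87), Xbp1 (-1.56), Hsp90b1 (-1.53), Edem1 (-0.99), Sec61b (-0.78), Hyou1 (-0.60) and Hspa5 (-0.57) lay between. The share of J558 cells was 87.8% with vehicle and 3.56% with TAK-931. Such a sum alone cannot tell fewer cells of a type from less RNA per cell. Within J558 cells the members summed to 15960 CPM with vehicle and 17600 CPM with TAK-931, at medians of 42482 and 73592 UMIs per cell.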

How the data were processed

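Single-cell RNA libraries of 1 vehicle and 1 TAK-931 tumour were read. Per the file headers and the submitters' processing notes, the authors deposited gene by barcode UMI counts, made with Cell Ranger 6.0.0 and build mm10. The study's methods name a human build, and the gene names in the files are mouse. Cells needed more than 2000 genes and less than 15% of UMIs from mitochondria. J558 cells had at least 3 Trap1a UMIs. The others were clustered (scanpy 1.11.5, leidenalg 0.10.2, 2000 variable genes without members, pathway lists or immunoglobulin genes, resolution 0.5) and named from markers. Doublets were not called.

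Counts were summed per class and divided by the summed total. Ratios needed 50 UMIs in both sums together, and a member counted as past the limit at 2-fold between classes or 1.5-fold between states or treatments. Poisson and Clopper-Pearson intervals (scipy 1.17.1) cover counting error only. With 1 library per group there is no test. States were 4 bins of near-equal size, from cells thinned to 10000 UMIs. Of simulated counts for the treatment ratio in J558 cells (12258 genes), 200 genes changed 2-fold were all recovered and 95.6% of intervals held the true value. These counts were drawn with counting noise alone, so they check the calculation and not the spread between cells or animals.

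The members, lists and rules were chosen with earlier results of these data known. Named were the 4 highest and 4 lowest members per comparison, 10 fixed genes, and the extremes of each pathway list, given for the comparisons where the lists are described. Ero1a, Ero1b and Hm13 were read under their older symbols. Of the 2 Ddit3 entries the lower identifier was used. Alternatives were other cell filters, totals, scaling, depth, clusters and free RNA correction.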

Additional observations from a re-analysis of the deposited data

Results flagged for a closer look

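Across the ER folding and secretory genes, the median treatment ratio (log2, TAK-931 over vehicle) was 0.14 in J558 cells and -0.56 in monocyte/macrophage-like cells, opposite directions from 1 library per group. Among J558 cells of 20000 to 60000 UMIs it was -0.26, of the same sign as in the macrophage-like cells. The difference was not tested.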

How the results depend on the processing

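Of the alternatives 209 values stayed close to those reported, 33 moved and 2 changed direction. The cause was not tested. Between cells of 20000 to 60000 UMIs the J558 treatment median was -0.26 (1 higher, 8 lower), a change of direction. With immunoglobulin in the totals the immunoglobulin-bin median was -0.026, also a change of direction, with 0 higher. Without immunoglobulin in the totals J558 to macrophage-like was 1.72 (TAK-931) with 0 lower in the vehicle library, and all kept cells -1.09. Scaled by the median ratio, J558 to macrophage-like was 1.19 (vehicle, 0 lower) and 1.22 (TAK-931), G2/M -0.30, S phase -0.17, immunoglobulin 0.24 with 2 higher, macrophage-like treatment 10 lower, all kept cells -1.11, and endothelial-like -0.42 with 8 lower. As the mean of each cell's CPM, G2/M was -0.17 and J558 treatment 0.075 with 1 lower, and J558 to macrophage-like (vehicle) had 0 lower. J558 treatment also had 1 lower without cells carrying other-lineage markers and without the 10 deepest TAK-931 cells. J558 to macrophage-like (TAK-931) was 1.62 after free RNA was subtracted. With 2 bins, G2/M had 1 lower, immunoglobulin 0 higher, and Hspa5 a median of 0.37 with 7 higher. Scored without thinning, S phase had 1 higher and Hspa5 a median of 0.68. Chosen after seeing the data were J558-like clusters only (1.63 for J558 to macrophage-like, TAK-931), cluster 2 only (macrophage-like treatment, 2 higher and 11 lower), and those of the Hspa5 and endothelial-like comparisons. With 1 library per group no leave-one-out value exists. No paired analysis was possible because each group has 1 library. The 124 treated J558 cells limit what their ratios can show.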
